A study of Mus musculus with 35 samples.

Results

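Gzma, Gzmb, Gzmk and Gzmm (granzymes A, B, K and M), Prf1 (perforin), Nkg7, Srgn (serglycin), Ctsw (cathepsin W) and Fasl (Fas ligand) are the killing genes of CD8 T cells. They were taken by symbol as 9 of the 22865 genes of a count table. They were followed in sorted hepatic and splenic CD8 T cells of C57BL/6 mice, all 13 months old, whose polyadenylated RNA was sequenced in bulk from its 3′ end. The groups differed by diet, organ and sort gate. On the diet labelled CD-HFD there were 5 libraries of liver cells positive for the chemokine receptor CXCR6 (CXCR6pos), 6 of liver cells negative for it (CXCR6neg) and 6 of spleen cells negative for the chemokine receptor CX3CR1 (CX3CR1neg). On the diet labelled ND there were 6 libraries of liver CXCR6pos, 4 of liver CXCR6neg and 5 of spleen CX3CR1neg cells. No liver gate on CX3CR1 is given in the labels, so that organ and gate cannot be told apart in a liver and spleen comparison. Nothing in the labels says that replicates came from separate mice, and p-values then measure the spread between these libraries, which may be partly technical. As the RNA is from sorted populations in bulk, fewer cells that express a gene and less RNA per cell cannot be told apart.

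Total counts ran from 15633 to 978896 per library, with a median of 308123, and the shallowest were replicate 5 of CD-HFD CXCR6pos (57168) and replicate 1 of ND CXCR6pos (15633). This ND library had 1 count of Gzmm, 3 of Prf1, 4 of Gzmk, 9 of Ctsw and 9 of Fasl. It set the lowest ND CXCR6pos level of Gzmb, Gzmm, Prf1, Nkg7, Srgn and Ctsw and the highest of Fasl. A single library had been filed both as replicate 1 of ND CXCR6neg and as replicate 6 of ND spleen, with equal values for all 22865 genes, and it entered neither group. Cxcr6, the gene of the sorted receptor, went against the gate in a pair of ND libraries. The library labelled ND CXCR6pos replicate 6 had 201 CPM (counts scaled to the library total) of Cxcr6 and the library labelled ND CXCR6neg replicate 4 had 450 CPM. The other ND CXCR6pos libraries had 295 to 812 CPM and the other ND CXCR6neg libraries at most 227 CPM. Markers of plasmacytoid dendritic cells differed in the same way. The 10 markers summed to 1135 CPM in the library labelled ND CXCR6pos replicate 6 and to at most 194 CPM in the other 5 of that group. They summed to 579 CPM in the library labelled ND CXCR6neg replicate 4 and 1000.5 to 1215 CPM in the other 3. In CD-HFD livers these markers summed to 124 to 224 CPM in CXCR6pos libraries and to 925 to 1544 CPM in CXCR6neg libraries. Siglech, which defines these dendritic cells, was at 0 in 4 of 5 CD-HFD CXCR6pos libraries and at 123 to 241 CPM in CXCR6neg libraries. The 8 NK cell markers summed to 84.4 to 283 CPM in CD-HFD CXCR6pos libraries and 555 to 646 CPM in CD-HFD CXCR6neg libraries. The marker with the highest mean was Klre1 in CD-HFD CXCR6pos libraries (91.1 CPM) and Tyrobp, which dendritic cells also express, in CD-HFD CXCR6neg libraries (366 CPM). Ncr1, which defines NK cells, was at 0 in every liver library. The labelled cell type was seen in all groups. The T cell genes Cd3d, Cd3e, Cd3g, Cd8a, Cd8b1, Trac, Trbc2, Cd2 and Lck summed to 14961 to 16333 CPM in CD-HFD CXCR6pos libraries, 10769 to 11087 CPM in CD-HFD CXCR6neg libraries and 7533 to 13506 CPM in ND CXCR6pos libraries. They lay between 10348 and 12784 CPM in the other 3 groups. The part of these other cells in the results was not tested.

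A cytotoxic T cell kills by either of 2 routes. In the granule route, perforin released at the contact with the target forms pores, through which the granzymes, a family of serine proteases, enter and cleave proteins of the target cell. Serglycin is the proteoglycan that packs granzymes and perforin in the granule, Nkg7 is a granule membrane protein needed for their release, and cathepsin W is a cysteine protease of cytotoxic lymphocytes. In the other route, Fas ligand on the T cell surface binds the death receptor Fas on the target and starts caspase activation. Granzyme A and granzyme K cut after basic residues and granzyme B after aspartate, while granzyme M prefers longer hydrophobic residues.

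The genes lie at chr13:113093825-113100981 (Gzma, minus strand), chr14:56258838-56262260 (Gzmb, minus), chr13:113171608-113225908 (Gzmk, minus), chr10:79689020-79695261 (Gzmm, plus), chr10:61297833-61304680 (Prf1, plus), chr7:43437073-43438249 (Nkg7, plus), chr10:62493833-62527451 (Srgn, minus), chr19:5465043-5468507 (Ctsw, minus) and chr1:161780689-161788495 (Fasl, minus) of GENCODE M21 on GRCm38, all protein-coding. Gzma and Gzmk are neighbours, 70626 bases apart with 0 protein-coding genes between them. Gzmk overlaps Esm1 and Ctsw overlaps Fibp, both on the opposite strand, and since the use of strand in counting is not given in the sources used here, reads of these pairs may not have been separated. The promoter windows of the 4 granzymes are shown because the levels of these genes went in different directions across the groups. Each runs from 250 bases before to 50 bases after a RefSeq start (GRCm38.p6), 5′ to 3′ on the strand of the gene, and for Gzmm the first of 2 starts is shown.
Gzma, chr13:113100932-113101231, minus strand: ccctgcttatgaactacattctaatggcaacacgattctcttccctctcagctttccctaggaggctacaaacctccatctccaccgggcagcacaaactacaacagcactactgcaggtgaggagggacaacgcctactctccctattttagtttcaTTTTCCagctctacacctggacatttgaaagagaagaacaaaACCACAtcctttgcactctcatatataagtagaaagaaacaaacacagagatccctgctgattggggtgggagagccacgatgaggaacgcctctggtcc
Gzmb, chr14:56262285-56262584, minus strand: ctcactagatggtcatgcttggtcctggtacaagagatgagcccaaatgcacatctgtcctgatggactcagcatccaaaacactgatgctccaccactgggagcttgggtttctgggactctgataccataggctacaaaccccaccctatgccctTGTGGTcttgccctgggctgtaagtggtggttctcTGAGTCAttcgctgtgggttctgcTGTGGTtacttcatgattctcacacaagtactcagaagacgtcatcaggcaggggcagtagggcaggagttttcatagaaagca
Gzmk, chr13:113180916-113181215, minus strand: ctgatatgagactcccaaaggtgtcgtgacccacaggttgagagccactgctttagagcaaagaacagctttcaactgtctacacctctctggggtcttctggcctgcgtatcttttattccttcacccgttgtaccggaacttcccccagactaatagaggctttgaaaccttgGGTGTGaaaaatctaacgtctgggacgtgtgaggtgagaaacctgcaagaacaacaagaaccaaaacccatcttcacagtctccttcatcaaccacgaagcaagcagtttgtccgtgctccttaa
Gzmm, chr10:79688770-79689069, plus strand: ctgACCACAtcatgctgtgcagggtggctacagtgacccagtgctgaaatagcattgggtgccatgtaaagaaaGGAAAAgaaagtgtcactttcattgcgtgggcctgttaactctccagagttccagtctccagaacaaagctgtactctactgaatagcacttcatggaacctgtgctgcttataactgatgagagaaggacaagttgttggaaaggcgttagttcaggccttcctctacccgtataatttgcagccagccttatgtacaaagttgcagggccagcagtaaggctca
Capitals mark core letters of motifs searched on both strands: TGTGGT for RUNX factors, GGTGTG for T-box factors such as T-bet and Eomes, TGANTCA for AP-1 and GGAAAA for NFAT. TGTGGT and GGTGTG can share letters, but no matches overlapped in these windows. The Gzmb window held 2 RUNX matches and 1 AP-1 match, the Gzma window 1 RUNX and 1 NFAT match, the Gzmk window 1 T-box match, and the Gzmm window 1 RUNX and 1 NFAT match. Of 32851 mouse promoter windows of the same length, 16.8% held the RUNX letters, 19.0% the T-box letters, 7.81% the AP-1 letters and 23.4% the NFAT letters, so that a match is common and is given as a description. A RUNX match was also present in the windows of Prf1, Nkg7 and 1 of 2 starts of Srgn, and a T-box match in those of Nkg7, Fasl and the other Gzmm start. For Ctsw no window was available, and it was not searched.

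All 9 genes passed the filter on low counts that left 6174 genes, in a fit of all 6 groups with edgeR's quasi-likelihood test. Nkg7 was the most abundant, with group means of 3139 to 8094 CPM after TMM scaling. No length correction was made, since each transcript gives a tag from its 3′ end. Levels of different genes can be compared only roughly, as whether reads or molecules were counted is not given. The span between groups set the genes apart. The highest group mean was 30.8 times the lowest for Gzma, 22.8 times for Gzmb, 7.95 times for Gzmm, 7.75 times for Gzmk and 6.50 times for Fasl. It was 2.58 times for Nkg7, 2.29 times for Srgn, 2.12 times for Prf1 and 1.44 times for Ctsw. CD-HFD CXCR6pos cells had the highest mean of all groups for 7 genes, and the lowest for Gzmm.

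**Figure D1:**
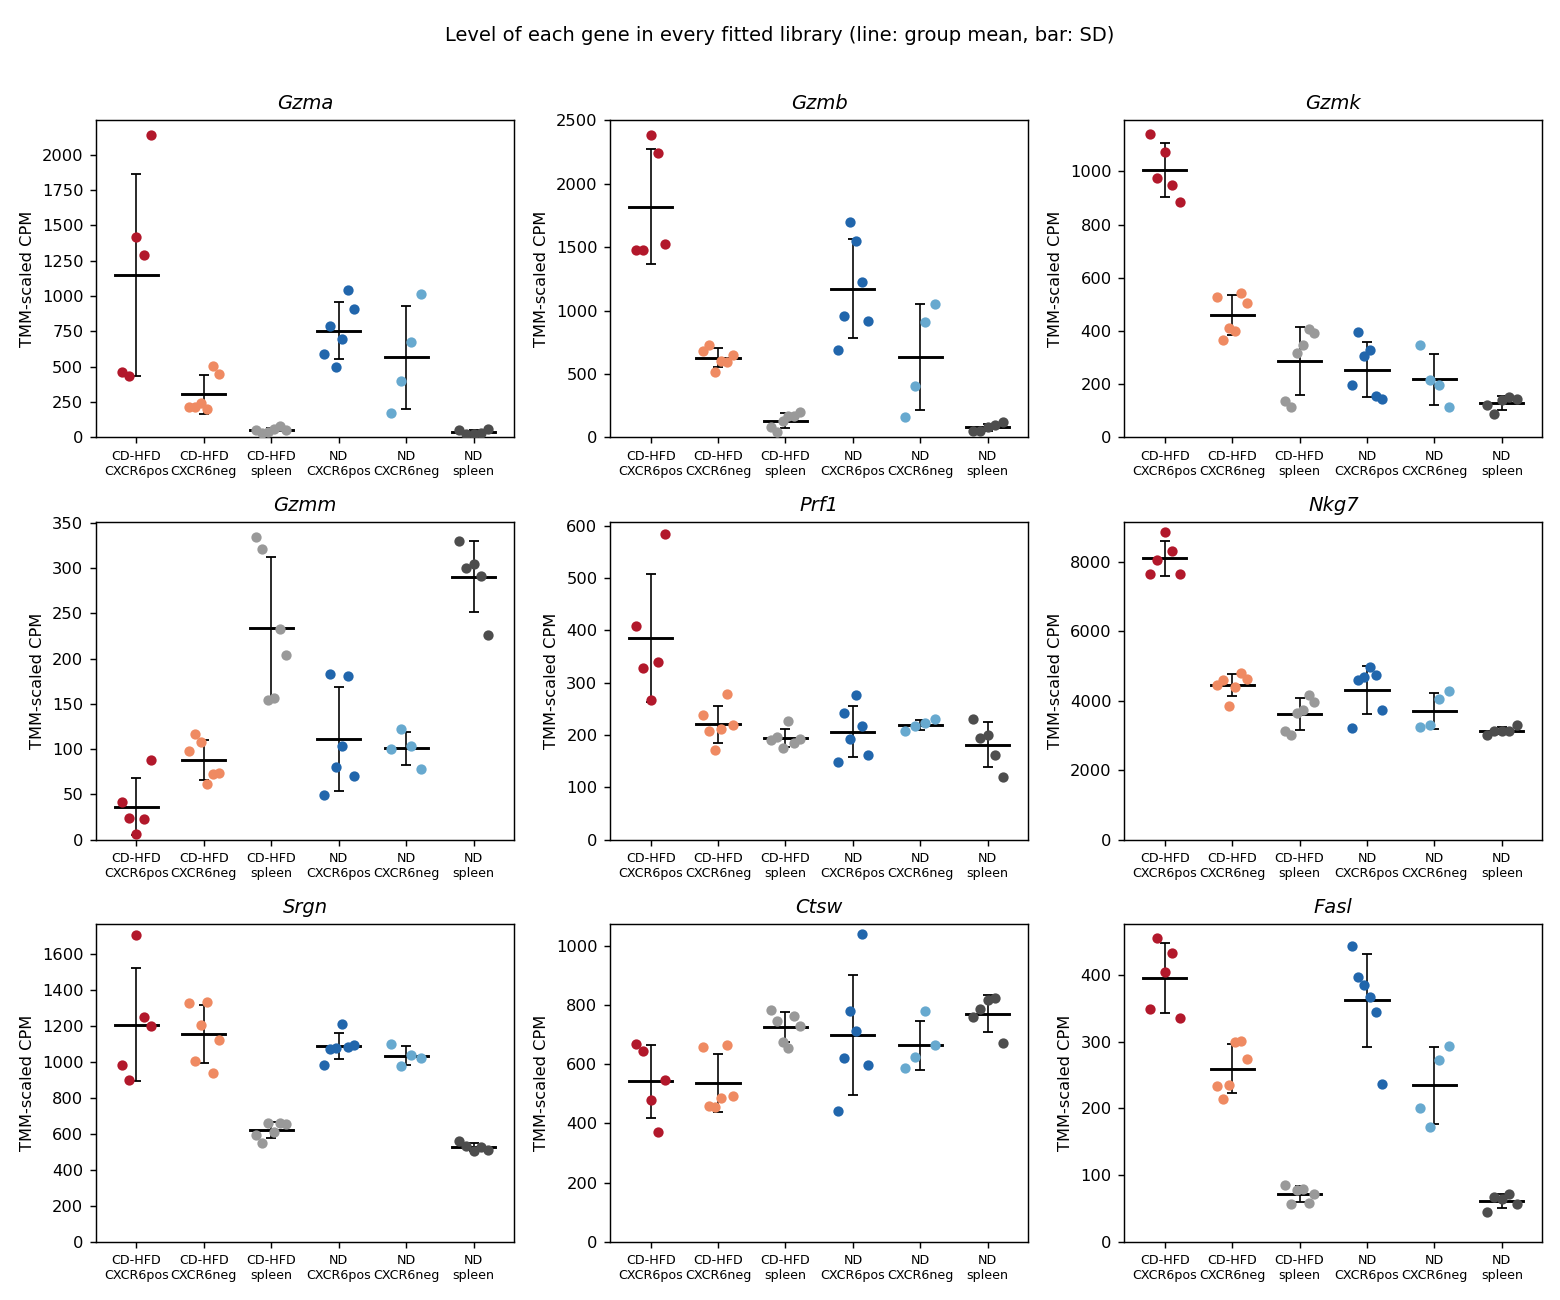
TMM-scaled CPM of each gene (linear axes from 0) in every fitted library, by group, with the group mean (line) and SD (bar). The 5 CD-HFD CXCR6pos libraries stand above all other libraries for Gzmk and Nkg7, Gzma, Gzmb and Fasl are high in all liver groups, and Gzmm is highest in spleen.

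Gzma and Gzmb rose in the liver against spleen in every diet and gate. Gzma had 461, 435, 1419, 1293 and 2140 CPM in the 5 CD-HFD CXCR6pos libraries, against a lowest, median and highest value of 203, 230 and 507 CPM in CD-HFD CXCR6neg libraries and of 32.3, 52.3 and 82.6 CPM in CD-HFD spleen. In ND mice Gzma was 501 to 1046 CPM in CXCR6pos libraries (median 741), 173, 402, 673 and 1017 CPM in CXCR6neg libraries, and 52.4, 27.3, 21.5, 29.2 and 56.4 CPM in spleen. Replicates 1 and 2 of CD-HFD CXCR6pos lay within the CXCR6neg range while the other 3 lay above it, and no liver library overlapped a spleen library of the same diet. In order of the group means, neighbouring groups overlapped except for CD-HFD CXCR6neg over CD-HFD spleen. Gzma was higher than in spleen by 4.45 ± 0.44 on the log2 scale in CD-HFD CXCR6pos cells (SE, 21.8-fold, adjusted p = 3.8e-09) and 4.50 ± 0.50 in ND CXCR6pos cells (adjusted p = 1.1e-07). In CXCR6neg cells the difference of Gzma from spleen was 2.60 ± 0.47 on CD-HFD (adjusted p = 0.00028) and 4.09 ± 0.53 on ND (adjusted p = 2.7e-06).

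Gzmb followed the same order of tissues. Its values were 1477, 1475, 2384, 2239 and 1521 CPM in CD-HFD CXCR6pos libraries, against 514 to 726 CPM in CD-HFD CXCR6neg libraries (median 628) and 40.9 to 198 CPM in CD-HFD spleen (median 150). In ND mice it had 689 to 1696 CPM in CXCR6pos libraries (median 1092), 160, 407, 910 and 1052 CPM in CXCR6neg libraries, and 52.4, 52.9, 78.9, 95.1 and 119 CPM in spleen. The CD-HFD fractions did not overlap, while the ND fractions did, with ND CXCR6neg libraries spread over 160 to 1052 CPM. Gzmb was higher than in spleen by 3.96 ± 0.35 in CD-HFD CXCR6pos cells (15.6-fold, adjusted p = 4.3e-10) and 4.03 ± 0.40 in ND CXCR6pos cells (adjusted p = 1.0e-08). In CXCR6neg cells the difference of Gzmb was 2.43 ± 0.35 on CD-HFD (adjusted p = 1.3e-05) and 3.14 ± 0.42 on ND (adjusted p = 5.1e-06). Neither granzyme was called for diet within the CXCR6pos gate. There Gzma differed between CD-HFD and ND by 0.43 ± 0.35 (adjusted p = 0.54) and Gzmb by 0.57 ± 0.30 (adjusted p = 0.29, 95% interval -0.02 to 1.15).

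Gzmk, the granzyme next to Gzma on its chromosome, had another order. It had 1140, 975, 1071, 949 and 884 CPM in CD-HFD CXCR6pos libraries, against 365 to 543 CPM in CD-HFD CXCR6neg libraries (median 459) and 116 to 408 CPM in CD-HFD spleen (median 333). In ND mice it had 143 to 397 CPM in CXCR6pos libraries (median 251), 347, 217, 195 and 113 CPM in CXCR6neg libraries and 123, 88.8, 140, 152 and 144 CPM in spleen. Every CD-HFD CXCR6pos library was above every library of the other groups, and below that group all neighbours in the order of means overlapped. In CXCR6pos cells Gzmk was 4.05-fold higher on CD-HFD than on ND (2.02 ± 0.30, adjusted p = 1.6e-05), and 1.86 (adjusted p = 0.00016) without the pair of ND libraries whose Cxcr6 went against the gate. On the CXCR6neg and spleen gates its diet differences of 1.14 ± 0.35 and 1.06 ± 0.32 were not called (adjusted p = 0.18 and 0.68), although the CXCR6neg libraries of the diets did not overlap. The CXCR6neg difference was called in a fit of only the compared groups (1.16, adjusted p = 0.00054). In CD-HFD spleen, replicates 1 and 2 had 137 and 116 CPM and the other 4 had 318 to 408 CPM, so that the group fell into a low and a high set. Replicates 1 and 2 also had the lowest Gzmb of that group (80.8 and 40.9 CPM against 129 to 198 CPM). Their Gzmm was the highest (334 and 321 CPM against 154 to 233 CPM).

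Gzmm ran the other way, lowest in CD-HFD CXCR6pos cells and highest in spleen. It had 41.3, 23.6, 6.22, 23.1 and 88.4 CPM in CD-HFD CXCR6pos libraries, against 61.7 to 117 CPM in CD-HFD CXCR6neg libraries (median 85.9) and 154 to 334 CPM in CD-HFD spleen (median 219). On ND, Gzmm had 49.2 to 183 CPM in CXCR6pos libraries (median 91.9), 100, 122, 104 and 77.9 CPM in CXCR6neg libraries and 330, 301, 305, 292 and 226 CPM in spleen. In order of the group means, all neighbouring groups overlapped. The CD-HFD CXCR6pos values rest on 7, 7, 1, 8 and 5 counts, and replicate 5, the shallow library, overlapped the CXCR6neg range. Gzmm fell by 3.12 ± 0.38 in CD-HFD CXCR6pos cells against spleen (8.72-fold lower, adjusted p = 1.4e-07). The log2 difference from spleen was -1.30 ± 0.25 in ND CXCR6pos (adjusted p = 0.00034), -1.44 ± 0.26 in CD-HFD CXCR6neg (adjusted p = 0.00029) and -1.56 ± 0.29 in ND CXCR6neg cells (adjusted p = 0.00046). Liver and spleen libraries overlapped in none of these 4 comparisons.

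The make-up of the granzyme transcripts was set side by side as shares. Of the summed counts of Gzma, Gzmb, Gzmk and Gzmm, Gzmm made up 0.937% ± 0.697 in CD-HFD CXCR6pos libraries (SD, n = 5), 6.09% ± 1.89 in CD-HFD CXCR6neg libraries (n = 6) and 35.6% ± 18.4 in CD-HFD spleen (n = 6). No CD-HFD spleen library was near that mean, as Gzmm made up 55.2% and 62.9% in replicates 1 and 2 and 21.4% to 26.1% in replicates 3 to 6. On ND it made up 4.75% ± 2.11 in ND CXCR6pos (n = 6), 8.10% ± 4.36 in ND CXCR6neg (n = 4) and 54.4% ± 8.60 in ND spleen (n = 5). Gzmk made up 26.4% ± 7.99 in CD-HFD CXCR6pos libraries and 11.2% ± 4.09 in ND CXCR6pos libraries, with every CD-HFD library (19.1% to 36.6%) above every ND library (5.96% to 17.0%). The share of Gzmk was 31.0% ± 3.03 in CD-HFD CXCR6neg libraries and 39.1% ± 12.7 in CD-HFD spleen, so that CD-HFD CXCR6pos cells, with the highest level of Gzmk, did not have its highest share. In CD-HFD spleen this share was 22.6% and 22.8% in replicates 1 and 2 and 45.7% to 49.4% in replicates 3 to 6. On ND it was 19.7% ± 17.5 in CXCR6neg libraries, which ran from 5.02% to 44.4%, and 24.0% ± 3.39 in spleen. Gzmb was the largest share in 4 of 5 CD-HFD CXCR6pos libraries. It was also the largest in every CD-HFD CXCR6neg and ND CXCR6pos library and in all ND CXCR6neg libraries but replicate 2. In no spleen library was it the largest. The summed level of the 4 genes averaged 4009 ± 921 CPM in CD-HFD CXCR6pos, 1481 ± 193 CPM in CD-HFD CXCR6neg and 706 ± 147 CPM in CD-HFD spleen. On ND it averaged 2294 ± 443 CPM in ND CXCR6pos, 1517 ± 674 CPM in ND CXCR6neg and 537 ± 39.0 CPM in ND spleen. The shares are descriptions and were not tested.

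**Figure D2:**
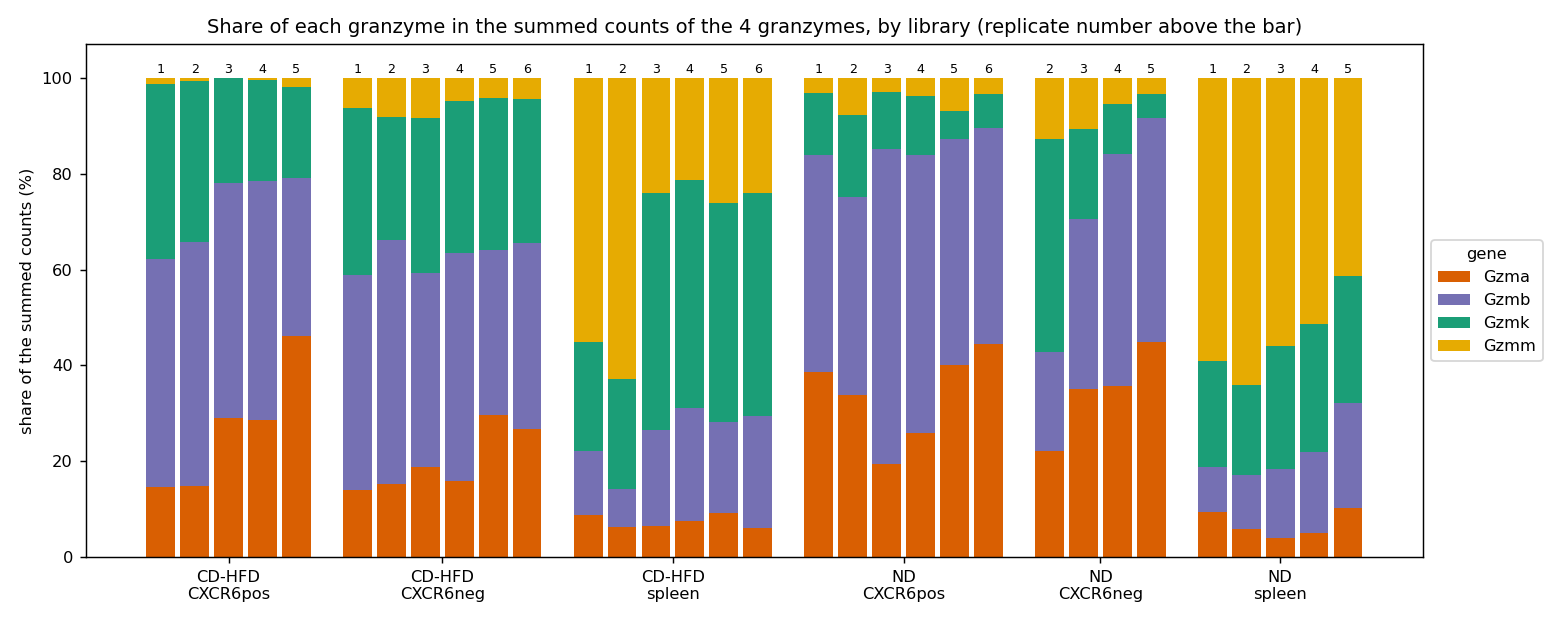
Share of Gzma, Gzmb, Gzmk and Gzmm in their summed counts (percent, stacked to 100) in each fitted library, with the replicate number above each bar. Gzmm takes a mean of 35.6% in CD-HFD spleen and 54.4% in ND spleen, and 0.937% in CD-HFD CXCR6pos libraries. In CD-HFD spleen it takes 55.2% and 62.9% in replicates 1 and 2 and 21.4% to 26.1% in replicates 3 to 6.

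Of the genes that open the target or handle the granule, Prf1 and Nkg7 were raised in CD-HFD CXCR6pos cells. Prf1 had 408, 327, 268, 340 and 584 CPM in CD-HFD CXCR6pos libraries, against 171 to 277 CPM in CD-HFD CXCR6neg libraries (median 215) and 176 to 226 CPM in CD-HFD spleen (median 191). In ND mice it had 148 to 277 CPM in ND CXCR6pos libraries (median 205), 207, 217, 223 and 230 CPM in ND CXCR6neg libraries and 231, 195, 201, 163 and 119 CPM in ND spleen. The lowest CD-HFD CXCR6pos library lay just inside the CXCR6neg range, and the means of the other 5 groups were between 182 and 221 CPM with overlapping libraries. Perforin RNA was thus 1.65-fold higher in CXCR6pos than CXCR6neg cells on CD-HFD (0.72 ± 0.15, adjusted p = 9.6e-05), and the other 3 liver groups were not called against spleen (0.16 to 0.25, adjusted p = 0.41 to 0.52).

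Nkg7 had 7631, 8036, 8845, 8318 and 7640 CPM in CD-HFD CXCR6pos libraries, against 3856 to 4802 CPM in CD-HFD CXCR6neg libraries (median 4534) and 2998 to 4172 CPM in CD-HFD spleen (median 3691). In ND mice Nkg7 had 3200 to 4971 CPM in ND CXCR6pos libraries (median 4638), 3255, 3288, 4036 and 4272 CPM in ND CXCR6neg libraries and 3010 to 3292 CPM in ND spleen (median 3134). All 5 CD-HFD CXCR6pos libraries were above every library of the other groups. Nkg7 was 1.82-fold higher there than in CD-HFD CXCR6neg cells (0.86 ± 0.09, adjusted p = 1.6e-12). It was 1.84-fold higher than in ND CXCR6pos cells (0.88 ± 0.10, adjusted p = 5.7e-13) and 2.25-fold higher than in CD-HFD spleen (1.17 ± 0.09, adjusted p = 1.5e-20). The smaller difference of CD-HFD CXCR6neg from spleen (0.31 ± 0.09, adjusted p = 0.013) was not called without CD-HFD spleen replicate 2 (0.26, adjusted p = 0.058) or with no filter on low counts (0.26, adjusted p = 0.16).

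Srgn divided liver from spleen and was not called between liver groups. It had 980, 898, 1706, 1252 and 1203 CPM in CD-HFD CXCR6pos libraries, 941 to 1335 CPM in CD-HFD CXCR6neg libraries (median 1163) and 550 to 661 CPM in CD-HFD spleen (median 633). On ND, Srgn had 985 to 1213 CPM in ND CXCR6pos (median 1080), 1101, 976, 1041 and 1024 CPM in ND CXCR6neg and 506 to 561 CPM in ND spleen (median 529). Every liver library was above every spleen library. The difference from spleen was 0.95 ± 0.11 in CD-HFD CXCR6pos, 0.91 ± 0.10 in CD-HFD CXCR6neg, 1.06 ± 0.11 in ND CXCR6pos and 0.97 ± 0.12 in ND CXCR6neg cells, with adjusted p of at most 7.1e-11. Between the CD-HFD liver fractions it was 0.04 ± 0.11 (adjusted p = 0.88).

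Ctsw had the narrowest span and was lower in CD-HFD liver cells than in spleen. It had 667, 645, 479, 369 and 548 CPM in CD-HFD CXCR6pos libraries, 457 to 664 CPM in CD-HFD CXCR6neg libraries (median 489) and 656 to 784 CPM in CD-HFD spleen (median 738). On ND, Ctsw had 443 to 1040 CPM in ND CXCR6pos libraries (median 667), 587, 623, 779 and 666 CPM in ND CXCR6neg libraries and 671 to 823 CPM in ND spleen (median 785). The groups overlapped in all 9 direct comparisons. Ctsw was lower in CD-HFD CXCR6pos than in ND CXCR6pos cells (-0.47 ± 0.13, adjusted p = 0.0081), a call that was lost without ND CXCR6pos replicate 5 (-0.31, adjusted p = 0.12) or CD-HFD CXCR6pos replicate 4 (-0.33, adjusted p = 0.12). It was also lower than in spleen in CD-HFD CXCR6pos cells (-0.44 ± 0.13, adjusted p = 0.0056; not called without CD-HFD CXCR6pos replicate 4, -0.29, adjusted p = 0.093) and in CD-HFD CXCR6neg cells (-0.46 ± 0.12, adjusted p = 0.0038).

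Fasl, the ligand of the other killing route, was high in the liver on both diets and, in CD-HFD livers, higher in CXCR6pos than in CXCR6neg cells. It had 348, 456, 405, 433 and 336 CPM in CD-HFD CXCR6pos libraries, against 215 to 302 CPM in CD-HFD CXCR6neg libraries (median 255) and 56.0 to 84.9 CPM in CD-HFD spleen (median 75.0). In ND mice it had 443, 397, 385, 367, 345 and 236 CPM in CXCR6pos replicates 1 to 6, against 200, 172, 272 and 294 CPM in CXCR6neg libraries and 44.5 to 72.1 CPM in spleen (median 64.5). The library labelled ND CXCR6pos replicate 6, whose Cxcr6 went against the gate, was the one ND CXCR6pos library inside the ND CXCR6neg range. Fasl was higher than in spleen by 2.50 ± 0.15 in CD-HFD CXCR6pos (5.67-fold, adjusted p = 1.5e-30) and 2.45 ± 0.16 in ND CXCR6pos cells (adjusted p = 3.3e-27). In CXCR6neg cells this difference was 1.84 ± 0.15 on CD-HFD (adjusted p = 4.6e-20) and 1.94 ± 0.18 on ND (adjusted p = 6.5e-17). Diet differences were 0.25 ± 0.13 in CXCR6pos (adjusted p = 0.27, 95% interval -0.01 to 0.51) and 0.09 ± 0.15 in CXCR6neg cells (adjusted p = 0.97), so that none was called.

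Between the CD-HFD liver fractions, 6 of the 9 genes were higher and 1 lower in CXCR6pos cells at an adjusted p under 0.05 (Benjamini-Hochberg over 6174 genes), where 4.76% of all genes were higher and 6.38% lower (11.1% together). Libraries of the fractions did not overlap for 4 of the 9 genes (Gzmb, Gzmk, Nkg7 and Fasl), against 6.85% of all genes. Besides Prf1 and Nkg7 the higher genes were Gzma (3.60-fold, 1.85 ± 0.38, adjusted p = 0.0012), Gzmb (2.89-fold, 1.53 ± 0.31, adjusted p = 0.00096), Gzmk (2.22-fold, 1.15 ± 0.28, adjusted p = 0.0058) and Fasl (1.59-fold, 0.67 ± 0.14, adjusted p = 0.00016). Gzmm was 3.21-fold lower (-1.68 ± 0.48, adjusted p = 0.018), and was not called without CD-HFD CXCR6pos replicate 2 (-1.60, adjusted p = 0.057) or replicate 4 (-1.58, adjusted p = 0.073). The median of the 9 was 0.72, against 0.00 over all genes tested. The CXCR6neg libraries had the higher sums of the dendritic cell and NK cell markers given above, and the summed T cell markers moved in the other direction. Of the NK cell markers, Tyrobp averaged 366 CPM in CXCR6neg and 28.7 CPM in CXCR6pos libraries and Fcer1g 121 and 22.1 CPM. Klre1 averaged 83.3 CPM in CXCR6neg and 91.1 CPM in CXCR6pos libraries.

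In ND livers none of the 9 was called between CXCR6pos and CXCR6neg cells in the fit of all groups with edgeR or with DESeq2, where 0.0324% of all genes were called, and 3 had an unadjusted p under 0.05. These were Fasl (0.51 ± 0.14, adjusted p = 0.20), Gzmb (0.89 ± 0.33, adjusted p = 0.42) and Nkg7 (0.24 ± 0.10, adjusted p = 0.49). The ND fractions overlapped for all 9 genes, and did not overlap for 1.04% of all genes. Cxcr6 itself was less far apart between the ND than between the CD-HFD fractions, as given above, and its part in the calls was not tested. Without the pair of libraries whose Cxcr6 went against the gate, Fasl was 0.71 higher and was called (adjusted p = 0.0061). It was also called without ND CXCR6pos replicate 6 alone (0.63, adjusted p = 0.0061). The number of all genes called grew in these fits too, from 2 of 6174 with every library kept. Without the pair 24 of 6341 genes were higher and 66 lower, and without replicate 6 alone 17 of 6056 were higher and 41 lower. Over the left-out libraries the number ran from 0 to 58, and without ND CXCR6neg replicate 5 it was 5 higher and 4 lower. Gzmb (1.20, adjusted p = 0.17) and Nkg7 (0.33, adjusted p = 0.15) were not called without the pair. Prf1 stood at -0.05 ± 0.15 (95% interval -0.35 to 0.26), turning to 0.06 without that pair.

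Diet in CXCR6pos cells moved 3 of the 9 up and 2 down, where 4.84% of all genes were higher and 6.45% lower on CD-HFD (11.3% together), and the diets did not overlap for 2 (Gzmk and Nkg7), against 4.50% of all genes. Gzmk, Nkg7 and Prf1 (1.68-fold, 0.75 ± 0.14, adjusted p = 3.3e-05) were higher, and Gzmm (4.32-fold lower, -2.11 ± 0.44, adjusted p = 0.0011) and Ctsw were lower on CD-HFD. All 5 stayed called without the pair of ND libraries whose Cxcr6 went against the gate, where Prf1 was 0.65, Nkg7 0.84 and Gzmm -2.27. The 8 NK cell markers summed to 84.4 to 283 CPM in CD-HFD CXCR6pos and 197 to 525.8 CPM in ND CXCR6pos libraries, with Ncr1 at 0 in both. The highest ND value was that of replicate 6, whose Cxcr6 went against the gate, and the other ND CXCR6pos libraries had 197 to 361 CPM. Of 4 listed markers of gamma-delta and other unconventional T cells, the 3 in the table summed to 0 to 11.8 CPM in CD-HFD CXCR6pos and 0 to 174 CPM in ND CXCR6pos libraries. Trdc, the constant gene of the delta chain, averaged 2.36 CPM in CD-HFD CXCR6pos and 64.8 CPM in ND CXCR6pos cells, and the part of such cells in the diet differences was not tested. In CXCR6neg cells 0 of the 9 were called in the fit of all groups with edgeR or with DESeq2, against 0.47% of all genes, with 4 at an unadjusted p under 0.05, and the diets did not overlap for 1 (Gzmk), against 1.90% of all genes. The 29 genes called there became 8 without ND CXCR6neg replicate 4, 19 without replicate 5 and 45 without replicate 2, with 0 of the 9 in each. In spleen 0 were called with either tool, against 0.0324% of all genes (0.0162% higher and 0.0162% lower), with 3 at an unadjusted p under 0.05 and 1 to 5 genes of all called over the left-out libraries, and the diets overlapped for all 9, against 0.745% of all genes with no overlap. The diet difference of Gzma in CXCR6neg cells was of the other sign than in CXCR6pos cells and was not called (-1.01 ± 0.40, adjusted p = 0.43). Cxcr6 was higher in ND CXCR6neg replicates 3, 4 and 5 than in any CD-HFD CXCR6neg library, and the part of this was not tested.

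Against spleen, 7 of the 9 were higher and 2 lower in CD-HFD CXCR6pos cells, where 12.5% of all genes were higher and 13.3% lower (25.7% together), and libraries did not overlap for 8 of the 9, against 14.8% of all genes. In ND CXCR6pos cells 5 were higher and 1 lower (7.43% and 6.98% of all genes, 14.4% together). In CD-HFD CXCR6neg cells 5 were higher and 2 lower (5.73% and 4.71%, 10.4% together), and in ND CXCR6neg cells 4 higher and 1 lower (4.73% and 2.14%, 6.87% together). Libraries did not overlap for 5 of the 9 in each of these, against 5.80%, 5.91% and 8.92% of all genes. Gzma, Gzmb, Srgn and Fasl were higher and Gzmm lower in all 4. Gzmk was called in CD-HFD CXCR6pos cells (3.79-fold, 1.92 ± 0.28, adjusted p = 3.2e-06), and not in ND CXCR6pos (0.97 ± 0.35, adjusted p = 0.062) or CD-HFD CXCR6neg cells (0.77 ± 0.28, adjusted p = 0.082). The ND CXCR6pos difference was called without the pair of ND libraries whose Cxcr6 went against the gate (1.14, adjusted p = 0.034), without ND CXCR6pos replicate 5 or 6 alone (1.13 to 1.14, adjusted p = 0.030 to 0.032) and with DESeq2 (0.99, adjusted p = 0.032). The CD-HFD CXCR6neg difference was called without CD-HFD spleen replicate 5 (0.88, adjusted p = 0.0496) or 6 (0.91, adjusted p = 0.046). Nkg7 was also higher in ND CXCR6pos cells (0.49 ± 0.10, adjusted p = 5.1e-05). The 10 B cell markers were highest in spleen, at 3913 to 7328 CPM on CD-HFD and 3307 to 5536 CPM on ND, against 371 to 537 CPM in CD-HFD CXCR6pos and 377 to 2219 CPM (median 461) in ND CXCR6pos libraries. They summed to 1758 to 2109 CPM in CD-HFD CXCR6neg and 1155 to 2434 CPM in ND CXCR6neg libraries. The dendritic cell markers, at 925 to 1544 CPM in CD-HFD CXCR6neg and 579 to 1215 CPM in ND CXCR6neg libraries, summed to 256 to 474 CPM in CD-HFD spleen and 273 to 348 CPM in ND spleen. The NK cell markers summed to 555 to 646 CPM in CD-HFD CXCR6neg libraries against 223 to 277 CPM in CD-HFD spleen, and to 351 to 673 CPM in ND CXCR6neg libraries against 215 to 263 CPM in ND spleen. In CD-HFD CXCR6neg and spleen libraries Tyrobp averaged 366 and 95.1 CPM, Fcer1g 121 and 49.2 CPM, and Klre1 83.3 and 94.9 CPM. In ND CXCR6neg and spleen libraries Tyrobp averaged 278 and 78.5 CPM, Fcer1g 74.3 and 43.7 CPM, and Klre1 121 and 87.9 CPM. The part of B, dendritic and NK cells in the differences from spleen was not tested.

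**Figure D3:**
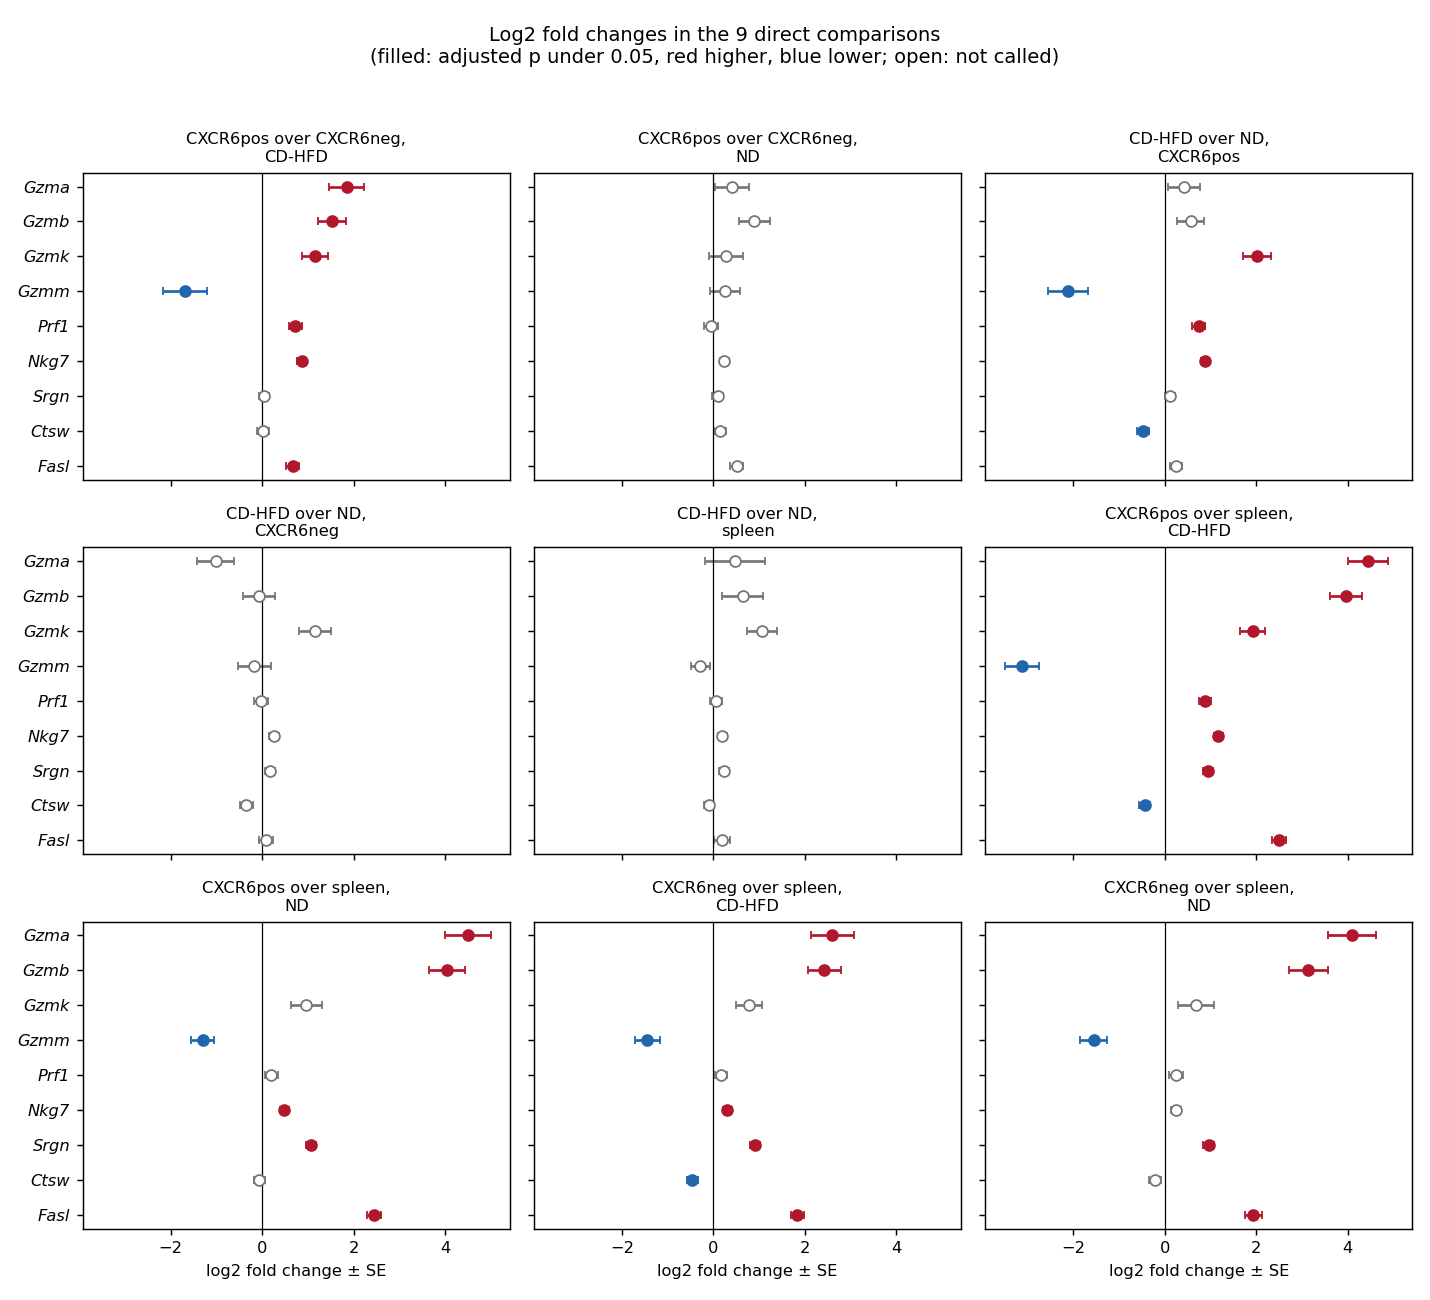
Log2 fold changes with SE of the 9 genes in the 9 direct comparisons, filled where the adjusted p was under 0.05 (red higher, blue lower) and open where it was not. In CD-HFD CXCR6pos cells against CD-HFD CXCR6neg cells, 6 genes are filled red and 1 blue, while the same comparison on ND has open points for all 9.

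Whether the diet difference itself depended on the fraction was tested directly. The ND fractions were less far apart in Cxcr6 than the CD-HFD fractions, and the part of this in the test is not known. The diet difference was larger in CXCR6pos than in CXCR6neg cells for 2 of the 9, Nkg7 (0.62 ± 0.14, adjusted p = 0.0044) and Prf1 (0.77 ± 0.21, adjusted p = 0.038). In this test 1.44% of all genes were called (0.437% higher, 1.00% lower). Without the pair of ND libraries whose Cxcr6 went against the gate, Nkg7 was 0.53 (adjusted p = 0.045) and Prf1 0.66 (adjusted p = 0.19). Prf1 was also not called without the shallow libraries (0.66, adjusted p = 0.084), with DESeq2 (0.77, adjusted p = 0.050095) or with no filter on low counts (0.72, adjusted p = 0.18). Leaving out any 1 of ND CXCR6pos replicates 3 and 6, CD-HFD CXCR6pos replicates 1 and 5, ND CXCR6neg replicates 3, 4 and 5 or CD-HFD CXCR6neg replicates 2, 3, 4 and 6 ended the call as well (0.66 to 0.78, adjusted p = 0.054 to 0.12). Gzmm (-1.94 ± 0.58, adjusted p = 0.10) was called with DESeq2 (-1.88, adjusted p = 0.026), with no filter (-1.98, adjusted p = 0.00023) and in a fit of only the compared groups (-1.94, adjusted p = 0.0092). In the fit of all groups Gzmm and Gzma (1.45 ± 0.54, adjusted p = 0.23) were not called, so that the larger CXCR6 difference of Gzma on CD-HFD was not shown to differ from that on ND.

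Against the diet difference in spleen, that in CXCR6pos cells was larger for Nkg7 (0.68 ± 0.13, adjusted p = 0.00023) and Prf1 (0.69 ± 0.19, adjusted p = 0.021) and more negative for Gzmm (-1.82 ± 0.50, adjusted p = 0.031). These were 3 of the 9, where 3.98% of all genes were called (1.21% higher, 2.77% lower). Prf1 was not called with no filter on low counts (0.61, adjusted p = 0.16), without the pair of ND libraries (0.59, adjusted p = 0.081) or without the shallow libraries (0.58, adjusted p = 0.061). It was likewise not called without ND CXCR6pos replicate 6, CD-HFD CXCR6pos replicate 5 or ND spleen replicate 1 alone (0.59 to 0.61). Gzmm was not called in a fit of only the compared groups (-1.82, adjusted p = 0.079) or without ND CXCR6pos replicate 5 or without CD-HFD CXCR6pos replicate 2, 3 or 4 (-1.54 to -1.74, adjusted p = 0.075 to 0.11). Gzmk (0.95 ± 0.45, adjusted p = 0.31) and Ctsw (-0.38 ± 0.17, adjusted p = 0.28) were not called.

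The wider pathway was read in 4 lists, and no gene of any list was called between the ND liver fractions or by diet in spleen. The lists are described by their counts, beside the share of all genes called in the same comparison, and nothing is read from them as particular to a list. Of 8 tested genes of granzyme processing and inhibition, 4 were higher and 1 lower in CD-HFD CXCR6pos than CXCR6neg cells (median 0.65 against 0.00 for all genes), where 4.76% of all genes were higher and 6.38% lower. In CXCR6pos cells 5 were higher and 0 lower on CD-HFD than on ND, against 4.84% and 6.45% of all genes. Cst7, or cystatin F, an inhibitor of the cathepsins that activate granzymes, averaged 623 CPM in CD-HFD CXCR6pos and 378 CPM in CD-HFD CXCR6neg cells (0.73 ± 0.12, adjusted p = 1.6e-06). It was higher by 0.63 ± 0.12 on CD-HFD than on ND in CXCR6pos cells (adjusted p = 2.1e-05). Serpina3g, a serpin of activated T cells, averaged 579 CPM in CD-HFD CXCR6pos cells against 243 CPM in CD-HFD CXCR6neg (1.20 ± 0.27, adjusted p = 0.0031) and 232 CPM in ND CXCR6pos cells (1.33 ± 0.27, adjusted p = 0.0010). Ctsl, a lysosomal cathepsin, was the lower gene, at 12.6 CPM in CXCR6pos and 141 CPM in CXCR6neg cells of CD-HFD livers (-3.26 ± 0.67, adjusted p = 0.0011). It was higher in CD-HFD CXCR6neg cells than in spleen (2.79 ± 0.47, adjusted p = 0.00011). The CD-HFD CXCR6neg libraries are those with the high dendritic cell marker sums, whose part was not tested. Against spleen, 6 of 8 were higher in CD-HFD CXCR6pos cells (12.5% of all genes), among them Serpinb9, which inhibits granzyme B (1.32 ± 0.22, adjusted p = 4.8e-07), and Ctsc, the cathepsin that activates granzymes (1.05 ± 0.17, adjusted p = 2.5e-07). The list had 3 of 8 higher in ND CXCR6pos, 3 in CD-HFD CXCR6neg and 1 in ND CXCR6neg cells, against 7.43%, 5.73% and 4.73% of all genes. Of the other granzyme genes searched, Gzmc was in the table, with 8 counts over all libraries.

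Among genes of granule transport most were not called. Of 18 tested, 2 were higher and 0 lower in CD-HFD CXCR6pos than CXCR6neg cells (median 0.16), close to the 11.1% of all genes called. In CXCR6pos cells 4 were higher and 2 lower on CD-HFD than on ND, where 11.3% of all genes were called. Sytl2, which tethers granules to the membrane through Rab27a, averaged 87.7 CPM in CD-HFD CXCR6pos and 30.1 CPM in CD-HFD CXCR6neg cells (1.65 ± 0.28, adjusted p = 3.4e-06). Vamp8, a granule SNARE protein, averaged 470 CPM in CD-HFD CXCR6pos against 302 CPM in ND CXCR6pos cells (0.67 ± 0.13, adjusted p = 2.0e-05). Against spleen, 5 were higher and 1 lower in CD-HFD CXCR6pos cells (25.7% of all genes called), including Rab27a (1.21 ± 0.23, adjusted p = 7.6e-06) and Stx11, a syntaxin of granule fusion (1.84 ± 0.38, adjusted p = 3.6e-05). Of the 18, 3 were higher in ND CXCR6pos cells, 1 in CD-HFD CXCR6neg and 1 in ND CXCR6neg cells, against 7.43%, 5.73% and 4.73% of all genes higher.

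On the Fas side, 5 of 16 tested genes of death receptor signalling were higher and 1 lower in CD-HFD CXCR6pos than CXCR6neg cells (median 0.19), against 4.76% and 6.38% of all genes. Tnfrsf1b, a receptor of TNF, was higher (0.92 ± 0.21, adjusted p = 0.00051). Fas itself averaged 25.6 CPM in CXCR6pos and 60.4 CPM in CXCR6neg cells, the opposite direction to Fasl (-1.29 ± 0.37, adjusted p = 0.010), and was not called without CD-HFD CXCR6pos replicate 4 (-1.004, adjusted p = 0.11). By diet in CXCR6pos cells 2 were higher and 2 lower, where 11.3% of all genes were called. Tnf, the cytokine ligand of the TNF receptors, averaged 27.5 CPM on CD-HFD and 245 CPM on ND (-3.16 ± 0.40, adjusted p = 1.2e-06). The direction for Tnf differed from that of Fasl, for which the same comparison was not called. By diet in CXCR6neg cells 1 of the 16 was lower, again Tnf (-2.23 ± 0.44, adjusted p = 0.0070). It was not called without ND CXCR6neg replicate 4 (-2.19, adjusted p = 0.059) or replicate 5 (-2.01, adjusted p = 0.069), without the pair of ND libraries whose Cxcr6 went against the gate (-2.19, adjusted p = 0.060), or with the library filed under 2 groups kept in liver (-1.82, adjusted p = 0.15). Against spleen, 2 were higher and 1 lower in CD-HFD CXCR6pos cells, 3 higher in ND CXCR6pos cells, 2 higher in CD-HFD CXCR6neg cells and 2 higher in ND CXCR6neg cells. Of all genes 25.7%, 14.4%, 10.4% and 6.87% were called in these comparisons, so that the list was near or below the background in the first 3. Tnf was 19.6-fold higher in ND CXCR6pos cells than in ND spleen (4.29 ± 0.39, adjusted p = 1.6e-09).

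Of 20 tested regulators of cytotoxic genes, 8 were higher and 2 lower in CD-HFD CXCR6pos than CXCR6neg cells, where 11.1% of all genes were called. By diet, 9 were higher and 4 lower on CD-HFD in CXCR6pos cells (11.3% of all genes called), and 2 were higher and 1 lower in CXCR6neg cells (0.47% of all genes). Runx3, a RUNX factor of cytotoxic T cells, averaged 210 CPM in CXCR6pos and 114 CPM in CXCR6neg cells of CD-HFD livers (0.86 ± 0.17, adjusted p = 0.00010). Bhlhe40, a repressor induced by T cell activation, averaged 843 CPM in CXCR6pos and 406 CPM in CXCR6neg cells (1.07 ± 0.13, adjusted p = 3.4e-10). Tcf7 and Klf2, which mark resting and recirculating T cells, were lower in CD-HFD CXCR6pos cells. Tcf7 was at 56.1 CPM against 286 CPM in CD-HFD CXCR6neg cells (-2.36 ± 0.20, adjusted p = 2.4e-18). Klf2 was at 645 CPM against 1382 CPM in CD-HFD CXCR6neg cells (-1.16 ± 0.12, adjusted p = 4.2e-14). By diet in CXCR6neg cells the call of Klf2 (-0.45 ± 0.11, adjusted p = 0.018) was lost without ND CXCR6neg replicate 3 or 4 or CD-HFD CXCR6neg replicate 2 or 4 (-0.38 to -0.44, adjusted p = 0.054 to 0.17). With the library filed under 2 groups kept in liver it was -0.28 (adjusted p = 0.60). The call of Tox, a factor of chronically stimulated T cells, in that comparison (1.46 ± 0.29, adjusted p = 0.0057) was lost without ND CXCR6neg replicate 4 (1.46, adjusted p = 0.071) or replicate 5 (1.28, adjusted p = 0.052). Without the pair of ND libraries neither was called (adjusted p = 0.071 for both). Batf, an AP-1 factor, was 3.93-fold higher in CXCR6pos cells on CD-HFD than on ND (1.97 ± 0.18, adjusted p = 1.1e-14). Prdm1, the gene of Blimp-1, was 10.8-fold higher in CD-HFD CXCR6pos cells than in spleen (3.43 ± 0.33, adjusted p = 2.2e-16). Against spleen 9 were higher and 4 lower in CD-HFD CXCR6pos, 5 and 2 in ND CXCR6pos, 6 and 0 in CD-HFD CXCR6neg and 4 and 1 in ND CXCR6neg cells, against 25.7%, 14.4%, 10.4% and 6.87% of all genes called. In the test of whether diet differences depended on CXCR6, 1 of the 20 was higher and 2 lower (1.44% of all genes called), and in that of liver CXCR6pos against spleen 5 were higher and 3 lower (3.98%). In the last test 1 of 8 processing genes was higher, 1 of 18 transport genes lower, and 1 of 16 death receptor genes higher and 1 lower. The transport gene, Sytl1 (-1.956 ± 0.571, adjusted p = 0.027), and the higher death receptor gene, Tnfrsf1b (0.91 ± 0.28, adjusted p = 0.045), were not called with DESeq2 (adjusted p = 0.061 and 0.096).

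The genes whose log2 levels were most like each member over the 32 libraries, out of 5577 with a mean of at least 20 CPM, differed among the 9. These correlations share the diets, organs and gates of the libraries, are across 6 groups that stand apart, and are given as descriptions. Gzma was most like Gzmb (r = 0.93), and Gzmb most like the chemokines Ccl4 (0.96) and Ccl3 (0.96). Fasl (Rgs2, 0.96, and Ccl4, 0.95) and Srgn (Ccl4, 0.93) had Ccl4 among their nearest genes as well. Dusp1 (0.95 for Fasl, 0.93 for Srgn), Junb (0.94 and 0.93) and Tnfaip3 (0.94 and 0.92) were also among the 5 nearest genes of both, and Hspa5 (0.93) among those of Srgn. Gzmk was most like S100a11 (0.92), Tigit (0.89), Il10ra (0.89) and Pdcd1 (0.89), of which Tigit and Pdcd1 encode inhibitory receptors. Nkg7 was most like Ccl5 (0.96), Prf1 like Cd3g (0.80), and Ctsw like Fcgrt (0.74). Within the groups, after each group mean was removed, Gzma and Gzmb kept r = 0.50, Gzmb and Nkg7 0.79 and Gzmb and Ccl4 0.75, while Gzma and Gzmk had -0.16 and Fasl and Gzma 0.05. Ccl4 had r = 0.22 with Fasl and 0.38 with Srgn within the groups. Gzma and Gzmk had r = 0.48 over the libraries, although they are neighbours on chromosome 13.

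**Figure D4:**
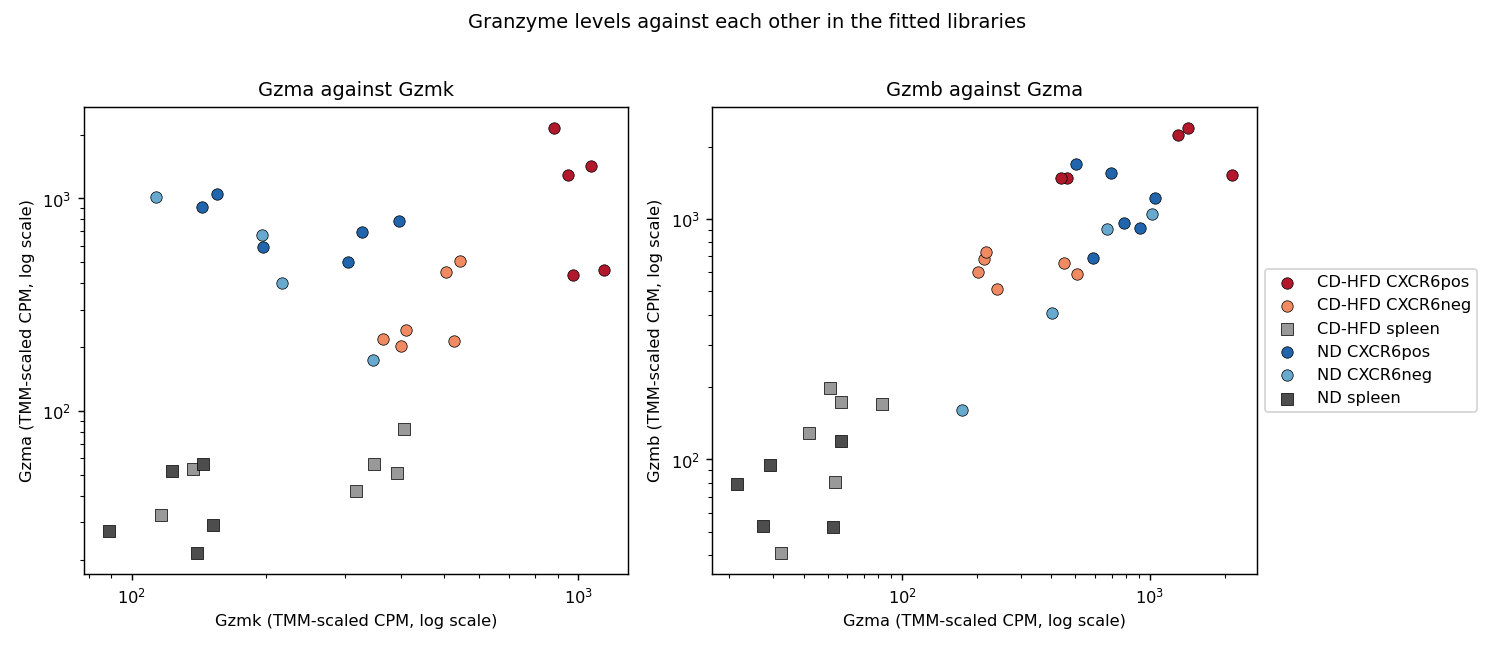
Levels of Gzma against Gzmk (left) and of Gzmb against Gzma (right) in the 32 fitted libraries, both axes in TMM-scaled CPM on log scales, circles for liver and squares for spleen. Gzmb and Gzma run together over all groups (r = 0.93 on log2 values). Gzmk separates the CD-HFD CXCR6pos libraries, at 884 to 1140 CPM, from the ND CXCR6pos libraries, at 143 to 397 CPM. Gzma does not, at 435 to 2140 CPM against 501 to 1046 CPM.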

How the data were processed

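Counts per gene were deposited by the authors as 1 table. Cells were sorted into lysis buffer and primed with oligo-dT carrying barcodes and molecular identifiers, per the labels' protocols, and DESeq2 1.14.1 and GRCm38 p6 are named in the submitters' processing notes. Which aligner, annotation and strand setting were used, and whether reads or molecules were counted, is not given in the sources used here. Of 35 columns, 34 matched a labelled sample by name and 1 was not used. CD-HFD CXCR6pos replicate 6 is not analysed here. The other 32 libraries, after the library filed under 2 groups was set aside, were fitted as 6 groups with edgeR 4.0.16 (R 4.3.3, limma 3.58.1): TMM scaling, filterByExpr, robust quasi-likelihood F test, Benjamini-Hochberg adjustment over 6174 genes and a threshold of 0.05. The SE is the log2 fold change over the root of F, and intervals are 95%. Levels are TMM-scaled CPM. The procedure was tested on simulated data. Replicate numbers did not enter as a block. The alternatives were size factors by median ratio, no filter, DESeq2 1.42.0, only the compared groups, a replicate block, leaving out each library, keeping the library filed under 2 groups, and leaving out the shallow libraries or the pair whose Cxcr6 went against the gate. The genes, lists and alternatives were chosen with earlier results of these data known. All 9 genes are named throughout. Of each pathway list, named genes are among the up to 4 called genes with the smallest p of a comparison, and of genes alike among the 5 with the highest Pearson r.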

Additional observations from a re-analysis of the deposited data

Results flagged for a closer look

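The diet difference itself differed between cell groups for 3 genes, in edgeR's test of the difference with Benjamini-Hochberg adjustment. Nkg7 was 0.624 higher on the log2 scale in the diet difference of liver CXCR6pos than of liver CXCR6neg cells (adjusted p = 0.0044), and 0.684 higher than in that of spleen cells (adjusted p = 0.00023). Its means were 8094 CPM on CD-HFD and 4318 CPM on ND in CXCR6pos cells, 4453 CPM on CD-HFD and 3713 CPM on ND in CXCR6neg cells, and 3606 CPM on CD-HFD and 3139 CPM on ND in spleen. Prf1 was 0.768 higher against CXCR6neg cells (adjusted p = 0.038) and 0.687 higher against spleen (adjusted p = 0.021). The first call was lost under 17 of 30 alternatives and the second under 7 of 31. For Gzmm the diet difference of CXCR6pos minus that of spleen cells was -1.82 (adjusted p = 0.031), where the CD-HFD CXCR6pos level rests on 28 counts over 5 libraries, and this call was lost under 5 of 31 alternatives (adjusted p of at most 0.11). In 54 pairs of gene and group searched for a library far from the rest, 0 were found.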

How the results depend on the processing

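Of 44 called values of the 9 genes, 844 recomputed values gave 807 past the threshold in the same direction, 37 not past it and 0 with the other sign. Of 46 values not called, 889 recomputed values gave 19 past the threshold and 29 with the other sign. Some uncalled differences between diet differences were not counted among the 46. They were Gzmb, Gzmk, Srgn, Ctsw and Fasl for CXCR6pos against CXCR6neg cells, and Gzma, Gzmb, Srgn and Fasl for CXCR6pos against spleen cells. The cause was not tested for any change of call or sign. Genes called between ND CXCR6pos and CXCR6neg cells numbered 0 to 1 when each library was left out, 1 with the replicate block, where 33 of all 4896 genes were higher and 42 lower, and 1 without the pair of ND libraries whose Cxcr6 went against the gate. By diet in CXCR6neg cells 1 was called in a fit of only the compared groups and 2 with the block, and in spleen 1 with the block. For the dependence of the diet difference on CXCR6 the number was 1 to 2 over the left-out libraries, and 1 with the block, without the shallow libraries and without that pair.

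Among the values not called that were counted, the sign turned as follows. Between CD-HFD liver fractions, Ctsw was -0.0062 with no filter and -0.074 to 0.17 over the left-out libraries, and Srgn -0.12 to 0.15. Between ND fractions, Gzmm was -0.20 with the library filed under 2 groups kept in both groups and -0.20 with it in liver, and -0.011 to 0.42 over the left-out libraries, while Prf1 was 0.066 with the replicate block, 0.056 without the pair of ND libraries and -0.14 to 0.056 over the left-out libraries. By diet, Srgn in CXCR6pos cells was -0.036 to 0.23 over the left-out libraries. Gzmb in CXCR6neg cells was 0.0022 with DESeq2, 0.14 with the block, 0.23 and 0.22 with the library filed under 2 groups kept in both groups or in liver, 0.15 without the pair of ND libraries and -0.33 to 0.25 over the left-out libraries. Over the left-out libraries Prf1 was -0.059 to 0.028 and Fasl -0.028 to 0.21 in CXCR6neg cells, and Prf1 -0.0080 to 0.14 in spleen. Ctsw in ND CXCR6pos cells against spleen was 0.019 without the pair of ND libraries and -0.21 to 0.013 over the left-out libraries.

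Groups share replicate numbers, but in none of 15 pairs of groups were the deviations of all same-numbered libraries correlated above 0.1 over the 500 most abundant genes (lowest r -0.26, highest 0.48), and in none did every library correlate best with its own number. Between CD-HFD CXCR6pos and CXCR6neg, 3 of 5 same-numbered pairs were above 0.1, and between CD-HFD CXCR6neg and spleen 0 of 6. In CXCR6pos, 3 of 5 CD-HFD CXCR6neg libraries had their best match at their own number, and 2 of 5 the other way round. The check does not tell pairing of some libraries from none. With the replicate block, fitted in only the compared groups, Gzmb by diet in CXCR6pos cells was called (0.55, adjusted p = 0.00055), as were Fasl between ND fractions (0.63), Gzma (-0.88) and Gzmk (1.01) by diet in CXCR6neg cells, Gzmk by diet in spleen (0.87), Gzmk in ND CXCR6pos cells against spleen (1.20), and Gzmm in the dependence of diet on CXCR6 (-2.09). Nkg7 (0.56, adjusted p = 0.067) and Prf1 (0.67, adjusted p = 0.20) in that dependence and Prf1 against the spleen diet difference (0.57, adjusted p = 0.12) were not. Depth limits Gzmm most, with 1 to 8 counts per CD-HFD CXCR6pos library. In ND CXCR6pos replicate 1 it also limits other genes, with 1 count of Gzmm, 3 of Prf1 and 4 of Gzmk.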

Other observations

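The library filed under ND CXCR6neg and ND spleen, which entered no group, had 55.0 CPM of Gzma, 135 of Gzmb, 197 of Gzmk, 226 of Gzmm, 205 of Prf1, 3144 of Nkg7, 557 of Srgn, 715 of Ctsw and 75.8 of Fasl, from 527632 counts in all and without TMM scaling. On the same scale the other ND CXCR6neg libraries had 157 to 966 CPM of Gzma, 74.0 to 110 of Gzmm, 882 to 1005 of Srgn and 155 to 279 of Fasl, and the other ND spleen libraries had 19.9 to 53.2 CPM of Gzma, 213 to 295 of Gzmm, 468 to 508 of Srgn and 39.8 to 68.3 of Fasl. For Gzma, Srgn and Fasl the library lay outside both ranges, nearer to spleen, and for Gzmm inside the spleen range. For Gzmk (108 to 314 CPM in ND CXCR6neg, 84.98 to 144 CPM in ND spleen) and Nkg7 (2943 to 4059 CPM and 2689 to 3105 CPM) it lay inside the CXCR6neg range and above the spleen range. For Gzmb it lay between the ranges (145 to 999.6 CPM and 46.8 to 112 CPM). For Prf1 (187 to 219 CPM and 112 to 206 CPM) and Ctsw (531 to 752 CPM and 633 to 778 CPM) it lay inside both.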
